A study of Homo sapiens with 2 samples.

Results

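DNA repair genes were examined in T47D, an established oestrogen receptor positive breast cancer cell line, after lentiviral delivery of a short hairpin RNA against TRPS1 (shTRPS1) and after a negative control lentivirus (NC). TRPS1 is a zinc finger transcription factor of the GATA family and is best known as a repressor. The genes were taken from a list of 57 named for their role in repair and grouped by pathway, and 48 of the 57 had at least 1 named feature among the 11564 genes of the array values. The remaining 9, TDG, ERCC4, ERCC6, BRCA2, RAD50, RAD52, WRN, ATR and LIG4, were not analysed here. Each group was 1 sample on 1 one-colour array of total RNA. Both carried a lentivirus and grew in DMEM with fetal bovine serum, with the hairpin sequence, clone number and time after infection not given in the sources used here. With 1 array a group there is no replicate check, so every difference describes these 2 arrays alone and carries no p-value.

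Each kind of DNA lesion has its own repair route. In base excision repair a glycosylase removes an altered base, APEX1 cuts the strand and a polymerase and ligase fill the gap, whereas nucleotide excision repair cuts out a stretch around a bulky lesion and mismatch repair corrects errors of replication. Double-strand breaks are rejoined directly by end joining or copied from the sister chromatid by homologous recombination, and the Fanconi proteins unhook crosslinks between strands. Many recombination and Fanconi genes are known to be transcribed most in S phase, under E2F factors, while most base and nucleotide excision genes are transcribed throughout the cycle.

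The targeted transcript TRPS1 had an intensity of 603 in the shTRPS1 array and 726 in the NC array, a log2 difference of -0.27, so the array labelled shTRPS1 differed little from the control in its own target. Over all features the log2 values of the arrays correlated at r = 0.961, and the median log2 difference over 11564 genes was 0.05. Among markers of luminal breast epithelium, 10 of 11 were above background on both arrays, with GATA3 at 25543 in shTRPS1 and 22487 in NC. The measured leukocyte and endothelial markers, 3 of 6 and 1 of 4, were dim on both arrays. Of 7 fibroblast markers only COL1A1 had a feature, at 773 in shTRPS1 and 363 in NC, and of 6 basal markers 4 were measured, with KRT14 and KRT17 at least 2-fold higher in shTRPS1 and with log2 differences of -0.27 in KRT5 and -0.33 in ACTA2. The part of these markers in the repair values was not tested.

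A background level was set on each array as the 95th percentile of 60 olfactory receptor features, which breast epithelium is not known to use, and was an intensity of 325 in shTRPS1 and 397 in NC. A gene was called higher or lower when it was above that level on at least 1 array and the log2 difference was 1 or more in size, a 2-fold change. Of the 48 measured repair genes 32 were above background on at least 1 array, and 16 were dim on both. By this rule 1 of the 32, PRKDC, was higher in shTRPS1, where the share over all 6949 genes above background was 3.78%, and 1, OGG1, was lower, where that share was 2.37%. The members' 2 calls, 6.25% of 32, were near the 6.16% of all genes called in either direction, so the number of calls does not set repair genes apart. With both arrays above background, 0 of 29 were higher (1.39% of all such genes were) and 1 was lower (1.32% of all such genes).

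At a lower threshold more members were higher than lower. At 1.5-fold, 7 of the 32 genes were higher in shTRPS1 (21.9%), against 13.8% of all genes above background, and 1 was lower (3.12%), against 8.46%. The 7 were PRKDC, DDB1, UNG, PARP2, PALB2, BRCA1 and EXO1, and the lower gene was OGG1. In PRKDC, PALB2 and EXO1 the NC array was not above background, and with it set to background the bounds were at least 2.35-fold, 1.22-fold and 1.02-fold, so PALB2 and EXO1 count at 1.5-fold by their measured values alone. The 7-to-1 split depended on the scaling: after quantile normalization or loess, EXO1 left the higher genes and SMUG1 joined the lower ones, giving 6 higher (18.8%) and 2 lower (6.25%), where after loess 11.7% of all genes were higher and 10.2% lower. When both arrays had to be above background, 4 of 29 were higher (13.8%, against 9.13% of all genes) and 1 was lower (3.45%, against 7.03%). The median log2 difference over all 48 was 0.22, with 28 positive and 20 negative differences. Over all 11564 genes it was 0.05, with 6177 positive and 5385 negative. Only OGG1, DDB1 and PRKDC lay outside the central 95% of genes with a mean log2 intensity within 0.5 of their own, a range that leaves out 5% of genes by definition.

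**Figure D1:**
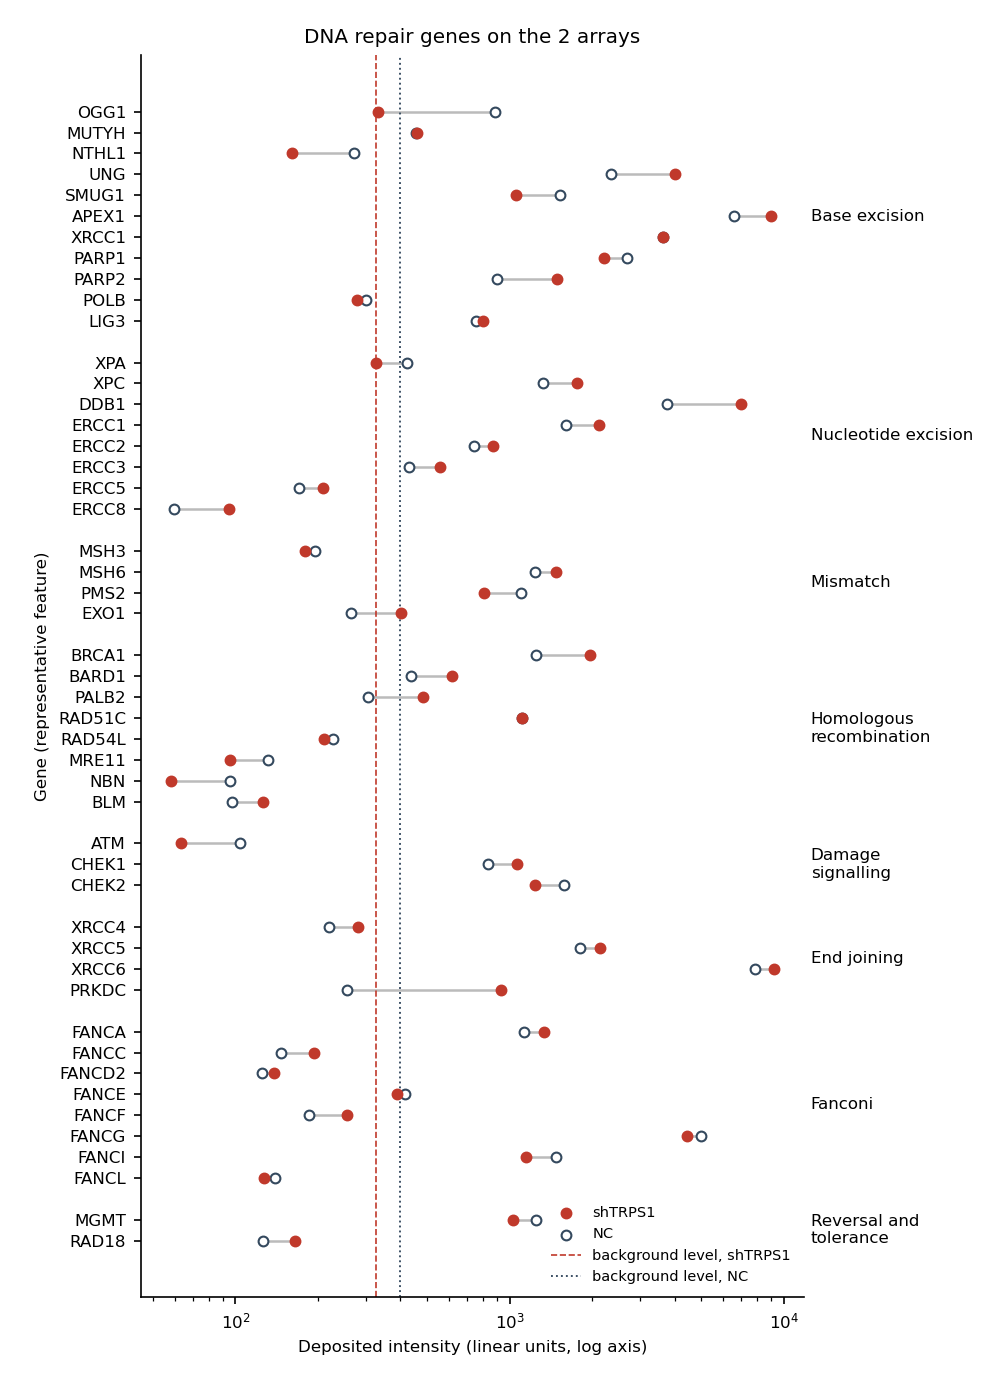
Deposited intensity (log axis) of the 48 measured repair genes, grouped by pathway, in the shTRPS1 array (filled) and the NC array (open), each 1 array without error bars. Dashed and dotted lines mark the background levels of 325 in shTRPS1 and 397 in NC. PRKDC (931 in shTRPS1, 255 in NC) and OGG1 (330 in shTRPS1, 888 in NC) have the widest gaps.

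PRKDC, the catalytic subunit of DNA-dependent protein kinase, which is recruited to broken ends by the Ku heterodimer, had the largest difference of any member. Its intensity was 931 in shTRPS1 and 255 in NC, a log2 difference of 1.87. The NC value was not above background, so PRKDC was at least 2.35-fold higher in shTRPS1. Genes of like intensity had differences between -1.08 and 1.17. PRKDC lies next to MCM4, which encodes a subunit of the replicative helicase, and MCM4 read 3159 in shTRPS1 and 3002 in NC, a log2 difference of 0.07. The gene on the other side, CEBPD, was dim on both arrays, at 205 in shTRPS1 and 193 in NC.

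The other end joining genes differed little. XRCC6 and XRCC5 encode the Ku subunits. XRCC6 had 9215 in shTRPS1 and 7872 in NC, a log2 difference of 0.23, and XRCC5 had 2146 in shTRPS1 and 1801 in NC, a difference of 0.25. Both were above background on both arrays and neither reached 1.5-fold. XRCC4, the scaffold of the end joining ligase, was dim on both arrays at 281 in shTRPS1 and 220 in NC. All 4 measured end joining genes had positive differences, with a median of 0.30, and PRKDC alone was called.

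OGG1, the glycosylase that removes oxidised guanine, was the member called lower, and its features disagreed. The call rests on the feature NM_016821, which read 330 in shTRPS1 and 888 in NC, 2.69-fold lower, where genes of like intensity had differences between -1.04 and 1.13. The shTRPS1 value lay just above the background level of 325. NM_016821, NM_016826 and NM_016828 belong to the type 2 transcripts, which end in a different last exon from the type 1 transcripts NM_002542 and NM_016819. The type 1 features showed no decrease: NM_002542 read 470 in shTRPS1 and 460 in NC, and NM_016819 read 423 in shTRPS1 and 321 in NC, of which only the shTRPS1 value exceeded its background. The remaining type 2 features were dim on both arrays and went in opposite directions, NM_016828 with 309 in shTRPS1 and 394 in NC, and NM_016826 with 127 in shTRPS1 and 81.7 in NC.

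The log2 differences of the 5 OGG1 features thus ran from -1.43 to 0.64. When the feature with the median difference stood for the gene, OGG1 had a log2 difference of 0.03, and with the mean over its features -0.14. The transcript that each feature detects was not tested, with probe positions not given in the sources used here. In the RefSeq annotation OGG1 overlaps CAMK1 and TADA3. CAMK1 was dim at 225 in shTRPS1 and 143 in NC, and TADA3 read 8224 in shTRPS1 and 7244 in NC. Of the next genes on each side, BRPF1 read 512 in both shTRPS1 and NC, and ARPC4 read 2013 in shTRPS1 and 2682 in NC, a log2 difference of -0.41 with the sign of the called OGG1 feature.

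The bases before the OGG1 start are shown because this single annotated start serves features that disagreed. They come from the RefSeq promoter table (GRCh38.p14, chr3:9749832-9749951, plus strand), and capitals mark CCAAT, here on the reverse strand.
OGG1: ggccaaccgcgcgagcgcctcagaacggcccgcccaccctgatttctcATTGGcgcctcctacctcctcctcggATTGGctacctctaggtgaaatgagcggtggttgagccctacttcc
The stretch of 120 bases holds 2 such matches. CCAAT on either strand occurred in 43.8% of the 73 promoter windows of the members and in 34.6% of all 35116 windows of 300 bases, so it is common.

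**Figure D2:**
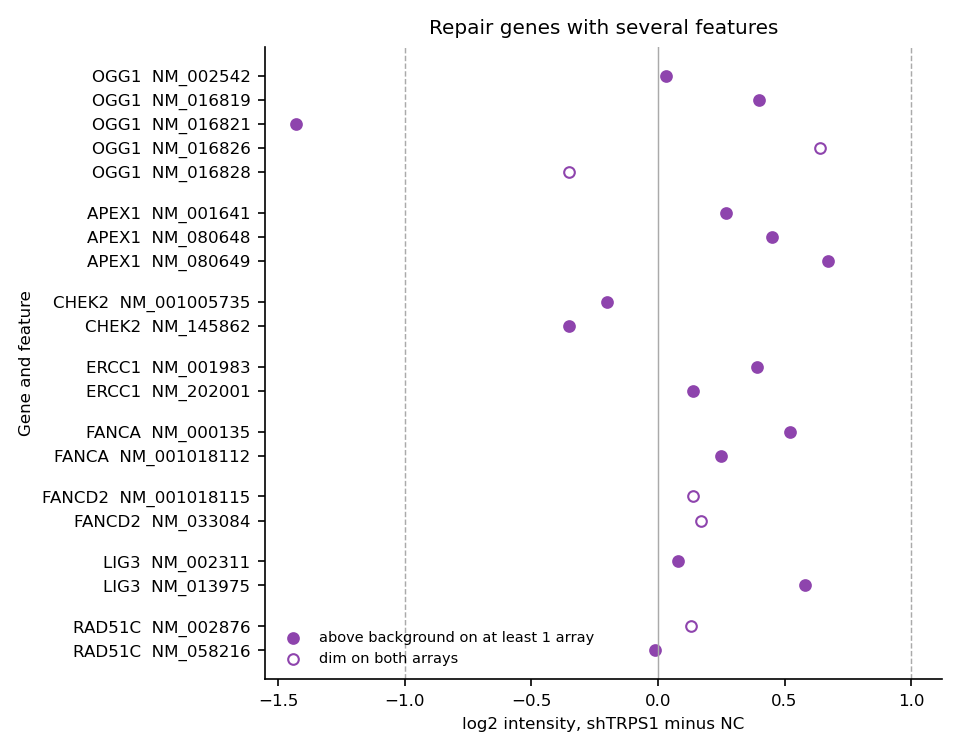
Log2 difference, shTRPS1 minus NC, of every feature of the 8 repair genes with several features, with dashed lines at 2-fold. The 5 OGG1 features spread from -1.43 to 0.64, while the features of each of the other genes lie within 0.50 of each other.

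In the other 7 genes with several features, the differences of each gene lay within 0.50 of each other. APEX1, the endonuclease that cuts at a site without a base, had differences of 0.27, 0.45 and 0.67 in 3 features. LIG3, the ligase that seals the base excision gap with XRCC1, had 0.08 and 0.58. ERCC1, part of the nuclease that cuts 5′ of a bulky lesion, had 0.39 and 0.14. The differences of these features were all positive and none reached 2-fold, though the APEX1 feature at 0.67 was 1.59-fold higher. FANCA, a Fanconi core complex subunit, had 0.25 and 0.52, and FANCD2, dim on both arrays, 0.14 and 0.17. CHEK2, a checkpoint kinase, had -0.35 and -0.20. RAD51C, which acts in homologous recombination, had -0.01 and 0.13, the only one besides OGG1 with opposite signs. The RAD51C feature at 0.13 was dim on both arrays.

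Among the glycosylases, UNG, which removes uracil from DNA, was higher in shTRPS1, with 4012 there and 2342 in NC, or 1.71-fold. SMUG1, another enzyme that removes uracil, had 1059 in shTRPS1 and 1528 in NC, a log2 difference of -0.53. MUTYH, which removes adenine opposite oxidised guanine, read 460 in shTRPS1 and 457 in NC. NTHL1, which removes oxidised pyrimidines, was dim on both arrays, at 161 in shTRPS1 and 271 in NC. The glycosylases therefore showed no common direction.

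Of the later base excision steps, PARP2, a sensor of strand breaks, had 1496 in shTRPS1 and 899 in NC and was 1.66-fold higher. Its better known relative PARP1 had 2212 in shTRPS1 and 2688 in NC, a log2 difference of -0.28. XRCC1, the scaffold, read 3620 in shTRPS1 and 3640 in NC, a difference of -0.01. POLB, the gap-filling polymerase, was dim on both arrays, at 277 in shTRPS1 and 299 in NC. Over the 11 measured base excision genes the median difference was -0.01, with 5 positive and 6 negative.

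Nucleotide excision genes had a median difference of 0.39 over 8 genes, with 7 positive differences and no call at 2-fold. This was the highest pathway median over all measured genes, dim ones included. With at least 1 array above background recombination had the highest, at 0.57 over 4 genes. Among them PALB2 was not above background in NC and was counted at its measured value. DDB1, which with its partner recognises ultraviolet lesions and also serves as adaptor of the CUL4 ubiquitin ligases, was 1.86-fold higher, at 7000 in shTRPS1 and 3767 in NC. Its difference of 0.89 exceeded the range of -0.69 to 0.75 of genes of like intensity. XPC, which detects helix distortion, read 1759 in shTRPS1 and 1320 in NC, a difference of 0.41. The helicases of TFIIH, ERCC3 and ERCC2, had differences of 0.38 and 0.22. XPA, which verifies the lesion, had the only negative difference, with 326 in shTRPS1 and 422 in NC, both close to background. ERCC5, the nuclease that cuts 3′ of the lesion, was dim on both arrays, at 208 in shTRPS1 and 171 in NC. ERCC8, which acts where transcription stalls at a lesion, was dim as well, at 95 in shTRPS1 and 59.5 in NC.

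DDB1 starts 123 bases from TKFC, a gene for a triose kinase that is transcribed the other way. TKFC read 432 in shTRPS1 and 606 in NC, a log2 difference of -0.49, so the 2 genes of this pair had differences of opposite sign. The 122 bases between the starts are shown because both genes share them (RefSeq, GRCh38.p14, chr11:61333106-61333227, minus strand).
DDB1: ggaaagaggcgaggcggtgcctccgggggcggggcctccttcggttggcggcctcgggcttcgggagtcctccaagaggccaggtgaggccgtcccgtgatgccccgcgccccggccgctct
This stretch held no CCAAT and none of the E2F and GATA letters searched in all member windows.

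Other members also start close to a gene on the opposite strand. With RefSeq starts within 1000 bases on opposite strands, 14 measured pairs of a repair gene and a divergent neighbour were found. PRKDC, SMUG1, POLB, NBN, XRCC5 and FANCI had no RefSeq promoter window, so no pair could be found for them. The differences had the same sign in 7 of the 14 and opposite signs in 7, and in 6 pairs with both genes above background on both arrays the split was 3 and 3. BRCA1 and NBR1 had measured differences of 0.65 and 0.97, and PALB2 and DCTN5 of 0.67 and 0.45. NBR1 and PALB2 were above background in shTRPS1 alone, so the size of their differences is not settled. PMS2 and AIMP2 had differences of -0.44 and 0.30.

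**Figure D3:**
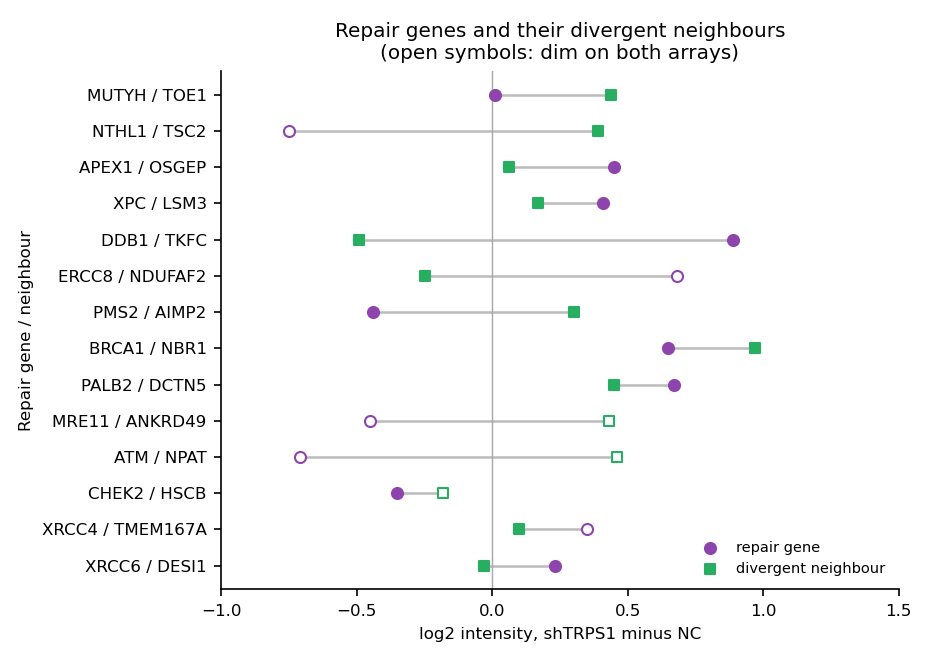
Log2 difference, shTRPS1 minus NC, of 14 repair genes (circles) and of the gene that starts within 1000 bases on the opposite strand (squares), with open symbols for genes dim on both arrays. In 7 pairs both lie on the same side of 0, and DDB1 (0.89) and TKFC (-0.49) lie on opposite sides.

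In mismatch repair, EXO1, the exonuclease that removes the faulty strand, read 403 in shTRPS1 and 264 in NC, of which only the shTRPS1 value exceeded background, giving a bound of at least 1.02-fold higher. MSH6, the partner in the sensor of single mismatches, had 1476 in shTRPS1 and 1241 in NC, a log2 difference of 0.25. PMS2, the endonuclease subunit, had 808 in shTRPS1 and 1100 in NC, a difference of -0.44. PMS2 has near-identical pseudogene copies, whose transcripts its feature may also detect. MSH3, the partner in the sensor of larger loops, was dim on both arrays, at 179 in shTRPS1 and 195 in NC. The 4 genes showed no common direction, with a median of 0.07.

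Of the 4 homologous recombination genes above background on at least 1 array, none was called at 2-fold and 3 had positive differences. BRCA1, the tumour suppressor that directs broken ends toward recombination, read 1963 in shTRPS1 and 1249 in NC, or 1.57-fold higher. BARD1, its obligate partner, had 615 in shTRPS1 and 437 in NC, a log2 difference of 0.49. PALB2, which links BRCA1 to BRCA2, had 484 in shTRPS1 and 305 in NC, and was at least 1.22-fold higher. The 3 physical partners thus shared a sign, and all lay inside the range of genes of like intensity. Over 8 measured genes the median was 0.19, and over the 4 above background on at least 1 array it was 0.57.

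The remaining 4 recombination genes with readings were dim on both arrays. NBN and MRE11, of the complex that binds broken ends, had low readings, NBN with 58.1 in shTRPS1 and 95.2 in NC, and MRE11 with 95.5 in shTRPS1 and 131 in NC. RAD54L, a motor that aids strand exchange, and the helicase BLM had differences of -0.10 and 0.38. NBN and MRE11 are needed by dividing cells in general, so a dim reading does not show that a transcript is absent. The 16 dim members read between 58.1 and 281 in shTRPS1 and between 59.5 and 299 in NC.

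Of the kinases that signal damage, CHEK1, which acts when replication stalls, had 1063 in shTRPS1 and 838 in NC, a log2 difference of 0.34. CHEK2, which acts on double-strand breaks, had 1236 in shTRPS1 and 1575 in NC, a difference of -0.35. The differences of the 2 kinases were thus similar in size and opposite in sign, and neither was called. ATM, the kinase upstream of CHEK2, was dim at 63.5 in shTRPS1 and 104 in NC.

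Fanconi genes showed no common shift, with a median of 0.03 over all 8 listed genes, 4 positive and 4 negative. Of those above background, FANCA had 1341 in shTRPS1 and 1125 in NC. FANCI, which pairs with FANCD2 and is ubiquitinated at stalled forks, had 1152 in shTRPS1 and 1475 in NC, a difference of -0.36. FANCG, a core complex subunit, had 4426 in shTRPS1 and 5015 in NC, a difference of -0.18. FANCE, another core subunit, read 390 in shTRPS1 and 414 in NC. The core subunits FANCC and FANCF, the ubiquitin ligase FANCL and its substrate FANCD2 were dim on both arrays, with differences of 0.42, 0.45, -0.13 and 0.14. Outside these pathways, MGMT, which removes alkyl groups from guanine directly, had 1026 in shTRPS1 and 1244 in NC, a difference of -0.28, and RAD18, a ligase of damage tolerance, was dim at 165 in shTRPS1 and 126 in NC.

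**Figure D4:**
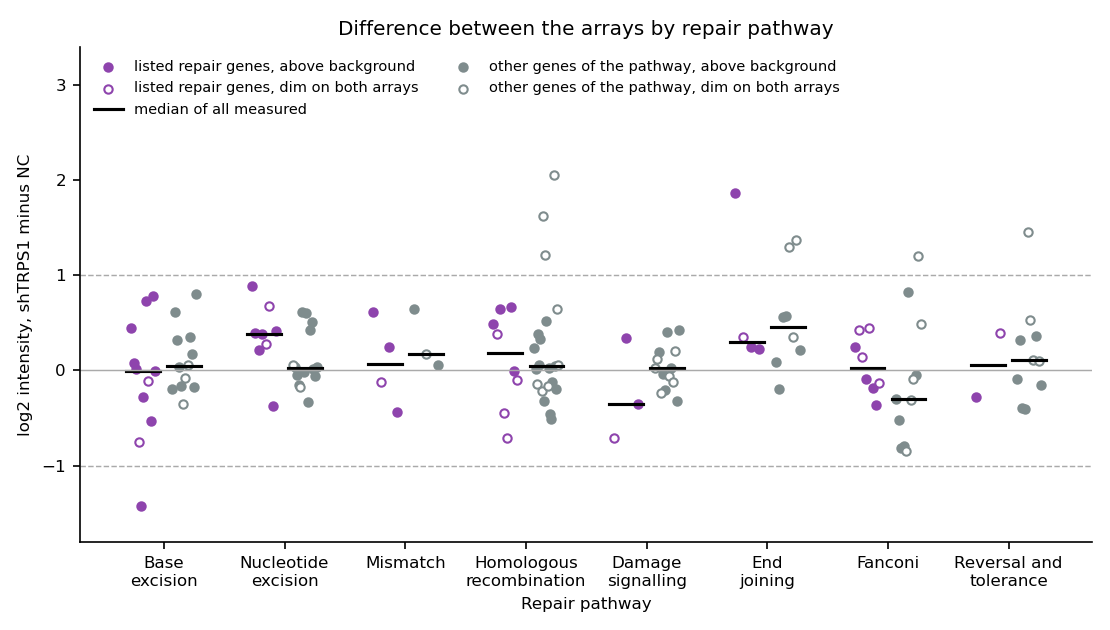
Log2 difference, shTRPS1 minus NC, of the listed repair genes (purple) and of other genes of the same pathways (grey), by pathway, with open points for genes dim on both arrays, dashed lines at 2-fold and black bars at the median of all measured genes. The medians of the listed genes run from -0.35 in damage signalling to 0.39 in nucleotide excision.

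Repair genes known to peak in S phase were also summarised as a group: BRCA1, BRCA2, BARD1, RAD54L, EXO1, BLM, CHEK1, FANCA, FANCD2, FANCI, FANCG, UNG and MSH6, of which 12 were measured. Their median difference was 0.30, with 9 positive and 3 negative, and 3 of the 9 above background were at least 1.5-fold higher, where 13.8% of all genes above background were. The 3 were UNG, BRCA1 and EXO1. EXO1 was above background in shTRPS1 alone, with a bound of at least 1.02-fold, and fell below 1.5-fold under all 3 rescalings. The other 36 measured members had a median of 0.05, with 19 positive and 17 negative. FANCI and FANCG were the S phase members above background with lower values in shTRPS1. Genes of DNA replication had a median of 0.31 over 32, and mitotic genes 0.61 over 28, so both medians lay above the 0.05 of all genes. With both arrays above background the medians were 0.31 for replication genes and 0.34 for mitotic genes. By the same filter the S phase members had 0.30 over 8 genes and the other members 0.01 over 21. The part of cell cycle distribution in the repair values was not tested, and in RNA of a whole culture more cells in a phase and more RNA per cell cannot be told apart.

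Promoter windows of 250 bases before to 50 after each annotated start were found in the RefSeq table (GRCh38.p14) for 50 of the 57 genes. An E2F motif, spelled TTTCCCGC, TTTCGCGC, TTTGCCGC or TTTGGCGC on either strand, was in at least 1 window of 10 of the 50 genes (20.0%), against 6.60% of 9330 genes with a named feature. The 2 sets are unlike, because the 50 include members without a named feature. Over all 27305 genes with a window the share was 3.99%. Counted by window, it was in 15.1% of 73 member windows, against 4.93% of 13399 windows of genes with a named feature and 3.31% of all 35116. Because these letters can overlap on opposite strands, a gene was counted once. The 10 were UNG, XPC, MSH3, MSH6, PMS2, EXO1, XRCC6, FANCA, FANCC and FANCD2, and in MSH6, EXO1, XRCC6 and FANCD2 the match lay at or after the start. These 10 genes had a median difference of 0.25, with 8 positive, and the 32 measured genes with a window and no match had 0.15, with 18 positive. Of the 10, 7 were above background on at least 1 array, and of the 32, 21 were. Over all 11564 genes 6177 differences were positive and 5385 negative.

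Stretches before the start are shown for 3 genes with a match, because they differed in direction, with UNG at 0.78, FANCA at 0.25 and PMS2 at -0.44. Capitals mark the E2F letters. The coordinates are chr12:109098073-109098152 (plus strand) for UNG, chr16:89816776-89816855 (minus strand) for FANCA and chr7:6009107-6009185 (minus strand) for PMS2.
UNG: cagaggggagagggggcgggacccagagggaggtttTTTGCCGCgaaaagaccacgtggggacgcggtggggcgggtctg
FANCA: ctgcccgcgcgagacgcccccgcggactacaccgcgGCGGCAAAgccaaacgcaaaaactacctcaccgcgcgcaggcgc
PMS2: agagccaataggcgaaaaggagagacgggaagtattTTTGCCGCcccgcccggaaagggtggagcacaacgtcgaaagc
UNG and PMS2 hold the same letters in the direction of transcription, and FANCA holds them on the reverse strand. TRPS1 belongs to the GATA family. The letters AGATAA or TGATAA on either strand were in a window of 2 of the 50 genes, BRCA1 and EXO1. They were in a window of 12.2% of genes with a named feature and of 19.4% of all genes. A match is a description of these letters and does not show binding.

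Other genes of the same pathways were taken from a list of 107, of which 92 were measured and 60 were above background on at least 1 array. None of the 60 was called at 2-fold in either direction, and at 1.5-fold 6 were higher (10%, against 13.8% of all genes) and 2 were lower (3.33%, against 8.46%). Chosen after their values were seen, FEN1, the flap nuclease, read 7069 in shTRPS1 and 4619 in NC, and the TFIIH subunits GTF2H2 and GTF2H4 had log2 differences of 0.61 and 0.60. Of the other TFIIH subunits of the list, GTF2H1, GTF2H3 and GTF2H5 had -0.17, -0.02 and -0.33. CDK7, CCNH and MNAT1 had 0.04, 0.06 and 0.51. GTF2H1 and CCNH were dim on both arrays. The Fanconi core partners FAAP100 and FAAP20 were the 2 lower ones. FAAP100 read 913 in shTRPS1 and 1599 in NC, and FAAP20 read 695 in shTRPS1 and 1202 in NC. With 11 measured genes, the other Fanconi list had a median of -0.30, with 3 positive and 8 negative. The other nucleotide excision genes had a median of 0.03 over 14, below the 0.39 of the listed ones, and the other recombination genes 0.05 over 21. The remaining lists of other genes had medians of 0.05 in base excision, 0.17 in mismatch repair, 0.46 in end joining, 0.03 in damage signalling and 0.10 in reversal and tolerance. These medians include genes dim on both arrays. With at least 1 array above background the end joining median was 0.21 over 5 genes, and that of reversal and tolerance -0.12 over 6. In the same order, base excision had 0.17 over 9, mismatch repair 0.35 over 2 and damage signalling 0.03 over 7.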

How the data were processed

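One-colour NimbleGen arrays of Cy3-labelled cDNA were made from 1 shTRPS1 and 1 NC sample. The intensity values used are those the authors deposited, on a linear scale, 1 per transcript accession (feature). RMA is named per the submitters' processing notes, with steps, version and genome build not given in the sources used here. No value was under 50. The deposited second table has 8 value columns that match no label. None was used, only its 18881 accessions. Log2 values were taken as deposited. Of 28973 features 12598 received a symbol by RefSeq accession, giving 11564 genes, each read from the feature brightest on average. For PRKDC, PALB2 and EXO1, dim in NC alone, the fold with the NC value set to its background level is given as "at least". Calls, counts, signs and medians used the values without this replacement. Members and lists were chosen with earlier results of these data known. Every member with a feature could be named, and other genes only if called or marked. Python 3.11.15, numpy 2.4.6, pandas 2.3.3 and statsmodels 0.14.6 were used. The rule was tested on simulated data, with changes larger than its threshold planted only in genes above background on both arrays. Smaller changes and changes in dim genes were not planted. The number of arrays limits the precision.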

Additional observations from a re-analysis of the deposited data

How the results depend on the processing

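No paired analysis was possible because each group had 1 array. The alternatives were median centring, quantile normalization, loess (span 0.4), other choices of feature, other filters and thresholds, and the features of the second table. The 3 rescalings changed no 2-fold call among the members, and the sign was kept in 45 of 48 genes under rescaling and feature choice, the exceptions being OGG1, MUTYH and RAD51C. Over all genes, 263 higher and 165 lower calls became 216 and 186 after loess.

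The count of higher genes was 1 and became 0 with both arrays above background and 7 at 1.5-fold. The second table held 16 members but no feature of PRKDC or OGG1. Its counts of 0 higher and 0 lower therefore say nothing about these 2 calls. At 1.5-fold, examined under rescaling after the data were seen, the 7 higher genes became 6 under all 3 rescalings, through EXO1, and the 1 lower gene became 2 after quantile normalization and after loess, through SMUG1. The count of lower genes was 1 and became 0 with the mean over features, 0 with the feature of median difference and 0 at 3-fold, all through OGG1. The OGG1 difference became -0.14 and 0.03 under the first 2.

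Pathway medians rest on few genes. Over the second table they were 0.45 for base excision (1 gene), 0.22 for nucleotide excision (5), -0.10 for mismatch (2), 0.38 for recombination (3), -0.53 for damage signalling (2) and 0.42 for Fanconi (3). With at least 1 array above background they were 0.25 for mismatch, 0.57 for recombination, -0.13 for Fanconi and -0.0032 for damage signalling, and with both arrays -0.10, 0.49, -0.13 and -0.0032. The median over all members stayed within 0.1 of 0.22 in the alternatives run. The cause of these shifts, beyond the fewer genes, was not tested.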

Other observations

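Some repair genes outside the listed members had far apart readings that were dim on both arrays, so they entered no call. SLX4, a scaffold of nucleases, read 284 in shTRPS1 and 68.4 in NC, and RAD51B, which acts in homologous recombination, 186 in shTRPS1 and 60.5 in NC. POLH, the polymerase that bypasses ultraviolet lesions, read 256 in shTRPS1 and 92.8 in NC, and USP1, which removes ubiquitin from FANCD2, 168 in shTRPS1 and 73 in NC. TDP2 read 210 in shTRPS1 and 81.4 in NC, and RAD54B 222 in shTRPS1 and 95.8 in NC. POLQ, the polymerase of alternative end joining, read 125 in shTRPS1 and 50.8 in NC. No value of these genes exceeded the background level of its array, so no fold is given. These genes were picked by their values. They are the 7 of the 32 dim other repair genes whose readings lay 2-fold or more apart, and 0 read lower in shTRPS1. Of all 4615 genes dim on both arrays, 282 read that much higher in shTRPS1 and 275 lower. Of the 16 dim listed members 0 did in either direction. The POLQ value in NC lay close to 50, the lowest value on the arrays.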
